A study of Mus musculus with 2 samples.

Results

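The genes described here encode membrane transporters for amino acids, hexoses and lactate. They were taken as every symbol of the deposited gene list that begins with Slc1a, Slc2a, Slc3a, Slc7a, Slc16a, Slc38a or Slc43a, without Slc7a1, Slc7a2, Slc2a1 and Slc16a3. Of the 31053 genes in the matrix, 61 symbols met this rule, and the 36 with at least 20 UMIs (unique molecular identifiers, 1 per captured RNA molecule) over the matrix were kept. The other 25 were below that minimum, 7 of them with 0 UMIs. Among the 36, Slc7a6os met the rule only by its symbol. It is the gene next to Slc7a6 on the opposite strand and encodes no transporter.

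Droplet 3′ single-cell RNA sequencing had been done on viable CD45+ cells from tumours of B16F10, a mouse melanoma line, 2 weeks after injection of the tumour cells. The control mice carried LysM-cre with an intact Rel gene (LysM-cre x Rel+/+), and the myeloid c-Rel knockout mice carried LysM-cre with floxed alleles (LysM-cre x RelloxP/loxP). Both groups thus carried LysM-cre, a recombinase driven from the lysozyme M locus and active in macrophages, monocytes and granulocytes. The injected melanoma cells were of a separate line. The labels do not say how completely Rel was lost in these myeloid cells, or whether other cells of the mice lost it. Each group was 1 sample, pooled from 5 tumours of similar size, and Rel encodes c-Rel, a subunit of NF-kB. The labels do not give the mice's age. The matrix joins both samples, and its 18252 barcodes carry a library number, 1 or 2, that no label ties to a genotype. Levels are therefore given for library 1 and library 2 side by side, with no comparison of genotypes, no replicate check and no p-values.

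Library 1 held 7688 barcodes with a median of 1588 UMIs, and library 2 held 10564 with a median of 4290. The libraries shared 3609 barcode sequences. A barcode with under 0.1 of the UMIs of the same sequence in the other library was treated as a copy and left out. This and the filters on UMIs, genes and mitochondrial RNA left 5198 barcodes in library 1 and 7999 in library 2. Each was given a class from its marker UMIs. In library 1 and library 2 respectively, these rules gave 2262 and 5385 melanoma, 464 and 660 macrophage, 513 and 592 monocyte, 112 and 46 neutrophil, 29 and 22 dendritic, 601 and 356 T, and 231 and 64 NK barcodes. The melanoma barcodes went against the CD45+ sort, since Ptprc, the gene of CD45, was at 6.16 and 4.0 CPM (counts-per-million, of UMIs) there, against 278 and 208 in macrophages. RNA of Pmel, Mlana, Dct and Tyrp1, genes of pigment cells, was found in every immune class, at 2.44% to 3.82% of the melanoma level in library 1 and at 6.20% to 8.54% in library 2, so a transporter of melanoma cells can give stray UMIs in immune barcodes.

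Slc7a5, Slc7a6, Slc7a7, Slc7a8 and Slc7a11 encode light chains that reach the cell surface with the heavy chain encoded by Slc3a2, and they exchange one amino acid for another. Slc1a5 and the Slc38 family carry glutamine and other small neutral amino acids, Slc43a2 carries large neutral amino acids, Slc2 proteins carry hexoses down their gradient, and Slc16 proteins carry lactate, pyruvate or aromatic amino acids. In tumours, cancer cells and infiltrating immune cells draw on the same nutrients, and Slc7a11, the light chain that imports cystine for glutathione in exchange for glutamate, is a known target of the stress factors ATF4 and NRF2.

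Promoter windows of 300 bases, from 250 before to 50 after each RefSeq gene start (GRCm38.p6), were matched by symbol for 15 of the 21 genes named below. They were searched on both strands for TGATGNAA, the C/EBP-ATF response element bound by ATF4 (N is any base), and for TGACNNNGC, the antioxidant response element bound by NRF2. The first motif was found in 3.97% of all 32851 windows, and 23 windows (0.0700%) held it at least 2 times. Slc7a5, Slc1a5, Slc38a1, Slc2a3, Slc16a6 and Slc16a7 had no window and were not searched for either motif. Among the 15 named genes with a window, the first motif was found for Slc7a11, Slc1a4 and Slc7a7. The stretches below show where, from 150 bases before to 20 after the start, with the motif in capitals. That of Slc7a11 lies at chr3:50443594-50443763, that of Slc1a4 at chr11:20332694-20332863 and that of Slc7a7 at chr14:54417925-54418094, all on the minus strand.
Slc7a11: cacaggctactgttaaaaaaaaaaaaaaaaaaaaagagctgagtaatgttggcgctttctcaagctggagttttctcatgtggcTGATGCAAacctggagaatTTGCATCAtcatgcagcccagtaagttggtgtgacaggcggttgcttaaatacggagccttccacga
Slc1a4: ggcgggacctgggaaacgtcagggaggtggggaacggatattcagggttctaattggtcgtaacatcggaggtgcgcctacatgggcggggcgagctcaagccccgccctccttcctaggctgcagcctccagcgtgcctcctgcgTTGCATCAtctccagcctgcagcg
Slc7a7: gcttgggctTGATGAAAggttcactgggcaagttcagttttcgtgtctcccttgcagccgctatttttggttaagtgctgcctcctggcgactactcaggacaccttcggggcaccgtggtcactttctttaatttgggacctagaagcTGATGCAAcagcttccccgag
In Slc7a11 the 2 matches stood on opposite strands, beginning 66 and 47 bases before the start and 11 bases apart. In Slc1a4 the match began 4 bases before the start. Slc7a7 had 5 windows, 2 of them with a match, and the window shown, the farthest upstream, held 2 matches. These began 141 and 1 bases before its start. The 2 windows overlap, and the match 1 base before this start is the same site that the other window holds. The second motif, found in 12.4% of all windows, was found for Slc16a1, Slc38a2 and Slc7a6, and not in the window of Slc7a11. These matches are a description of letters in these windows only, and a link to level was not tested. Of the 3 genes with the first motif, Slc7a11 and Slc7a7 were higher in macrophages than in melanoma and Slc1a4 was lower, as given below.

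Levels below are the UMIs of a gene summed over the barcodes of a class, as CPM of that class in that library, with exact 95% Poisson intervals where given. The intervals cover counting error only, not the difference between barcodes of a class, animals or libraries. Molecules are counted at their 3′ ends without division by length, so each gene is compared between classes and not with other genes. A gene was called higher in a class when the ratio of CPM was at least 2 in both libraries and both classes together held at least 50 UMIs of it in each library. By the rule for naming genes, 21 of the 36 had at least 30 CPM in 1 class in both libraries or were called in a comparison. The 15 others reached at most 51.9 CPM in melanoma, macrophage, monocyte or T barcodes, the value of Slc2a6 in library 1 monocytes. All 36 together made 1214 and 1092 CPM in melanoma, 1288 and 1143 in macrophages, 1206 and 1032 in monocytes and 929 and 924 in T barcodes, so the summed level differed little between these classes while single genes differed widely.

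**Figure D1:**
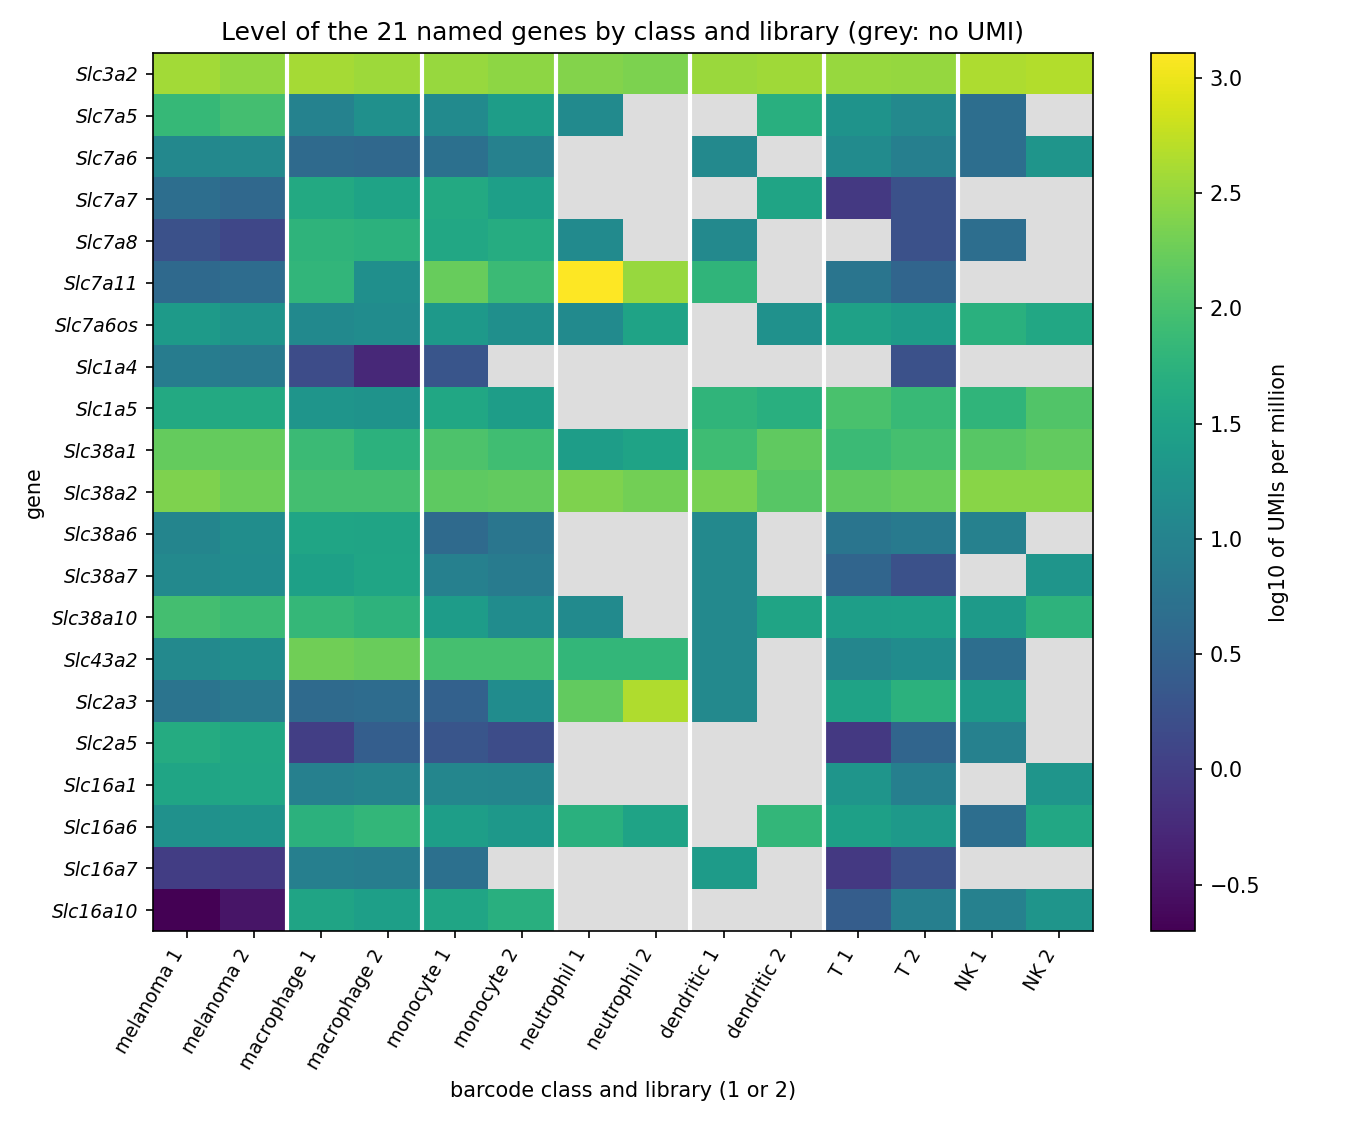
Level of each of the 21 named genes (rows) in each class and library (columns), as colour on a log10 scale of CPM, with grey where no UMI was found. Slc3a2 and Slc38a2 are coloured in every column, while Slc7a11 is brightest in neutrophils and Slc2a5 in melanoma.

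Slc3a2, the common heavy chain (chr19:8706882-8723369, minus strand, GENCODE M21 on GRCm38), was present in every class at similar levels. It was at 385 and 308 CPM in melanoma, 393 and 359 in macrophages, 328 and 291 in monocytes, 337 and 321 in T and 439 and 466 in NK barcodes. In the small neutrophil and dendritic classes it was at 249 and 229 and at 342 and 367 CPM. No comparison called it, and its share of the UMIs of all 36 genes was 27.2% to 39.9% in these classes in both libraries except in neutrophils, where it was 11.3% and 16.3%.

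Several light chains, unlike the heavy chain, were called between classes. Slc7a5 (LAT1, chr8:121881150-121907694), which imports leucine and other large neutral amino acids, had a melanoma level of 71.8 CPM (95% interval 69.2 to 74.5) in the first library and 93.0 (90.7 to 95.4) in the second. In macrophages it was at 9.73 and 16.1, in monocytes at 13.2 and 26.3 and in T barcodes at 18.2 and 12.3. With melanoma RNA subtracted, the macrophage level was 8.15 and 10.4. Without that subtraction melanoma was 7.38 (4.72 to 12.3) and 5.79 (4.03 to 8.65) times above macrophages. Slc7a6, a light chain for basic and neutral amino acids, was higher in melanoma as well, at 11.9 and 12.6 CPM against 4.10 and 3.88 in macrophages.

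Slc7a8 (LAT2), whose substrates overlap with those of Slc7a5, had the opposite pattern. It was at 60.4 CPM (50.01 to 72.4) and 54.9 (44.6 to 66.8) in macrophages and at 38.6 and 44.9 in monocytes, against 1.77 and 1.28 in melanoma. In T barcodes it had 0 UMIs in library 1, which allows up to 2.60 CPM at 3 counts, and 1 UMI in library 2. Slc7a7, which exports basic amino acids such as arginine in exchange for neutral ones, was at 41.5 and 32.7 CPM in macrophages, 40.7 and 27.9 in monocytes, 4.80 and 3.81 in melanoma and 0.866 and 1.76 in T barcodes. The melanoma levels of Slc7a7 and Slc7a8 were low in both libraries, and no interval there overlapped that of macrophages or monocytes.

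Slc43a2 (LAT4, chr11:75531694-75577575), which carries large neutral amino acids without a heavy chain, was at 190.5 CPM (172 to 211) and 175 (156 to 195) in macrophages and at 97.6 and 96.0 in monocytes. It was at 12.5 and 14.5 in melanoma and 11.3 and 14.1 in T barcodes. When each barcode was thinned to 1000 UMIs and shallower ones were left out, 17.6% and 16.8% of macrophages had a Slc43a2 UMI, against 1.12% and 1.63% of melanoma and 2.14% and 1.46% of T barcodes. Without thinning the shares were 48.5% and 33.6% against 17.7% and 15.2%, at median depths of 3671 and 2421 UMIs in macrophages and 17787.5 and 11756 in melanoma.

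Slc7a11, the cystine importer (chr3:49892526-50443614), covered a wide range of levels. In library 1 its level was 3.95 CPM in melanoma (159 UMIs), 65.0 in macrophages (127 UMIs), 168 in monocytes (165 UMIs) and 1283 in neutrophils (98 UMIs). In library 2 it was 4.40 in melanoma (286 UMIs), 15.5 in macrophages (28 UMIs), 77.5 in monocytes (50 UMIs) and 327 in neutrophils (10 UMIs). The order of these 4 classes was the same in both libraries, and no interval of one overlapped that of the next within a library. In T barcodes it was at 6.06 and 3.53 CPM from 7 and 2 UMIs, and in NK barcodes 0 UMIs were found, which allows up to 14.2 and 58.3 CPM at 3 counts. Dendritic barcodes had 5 UMIs in library 1 (61.1 CPM, 19.9 to 143) and 0 in library 2.

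**Figure D2:**
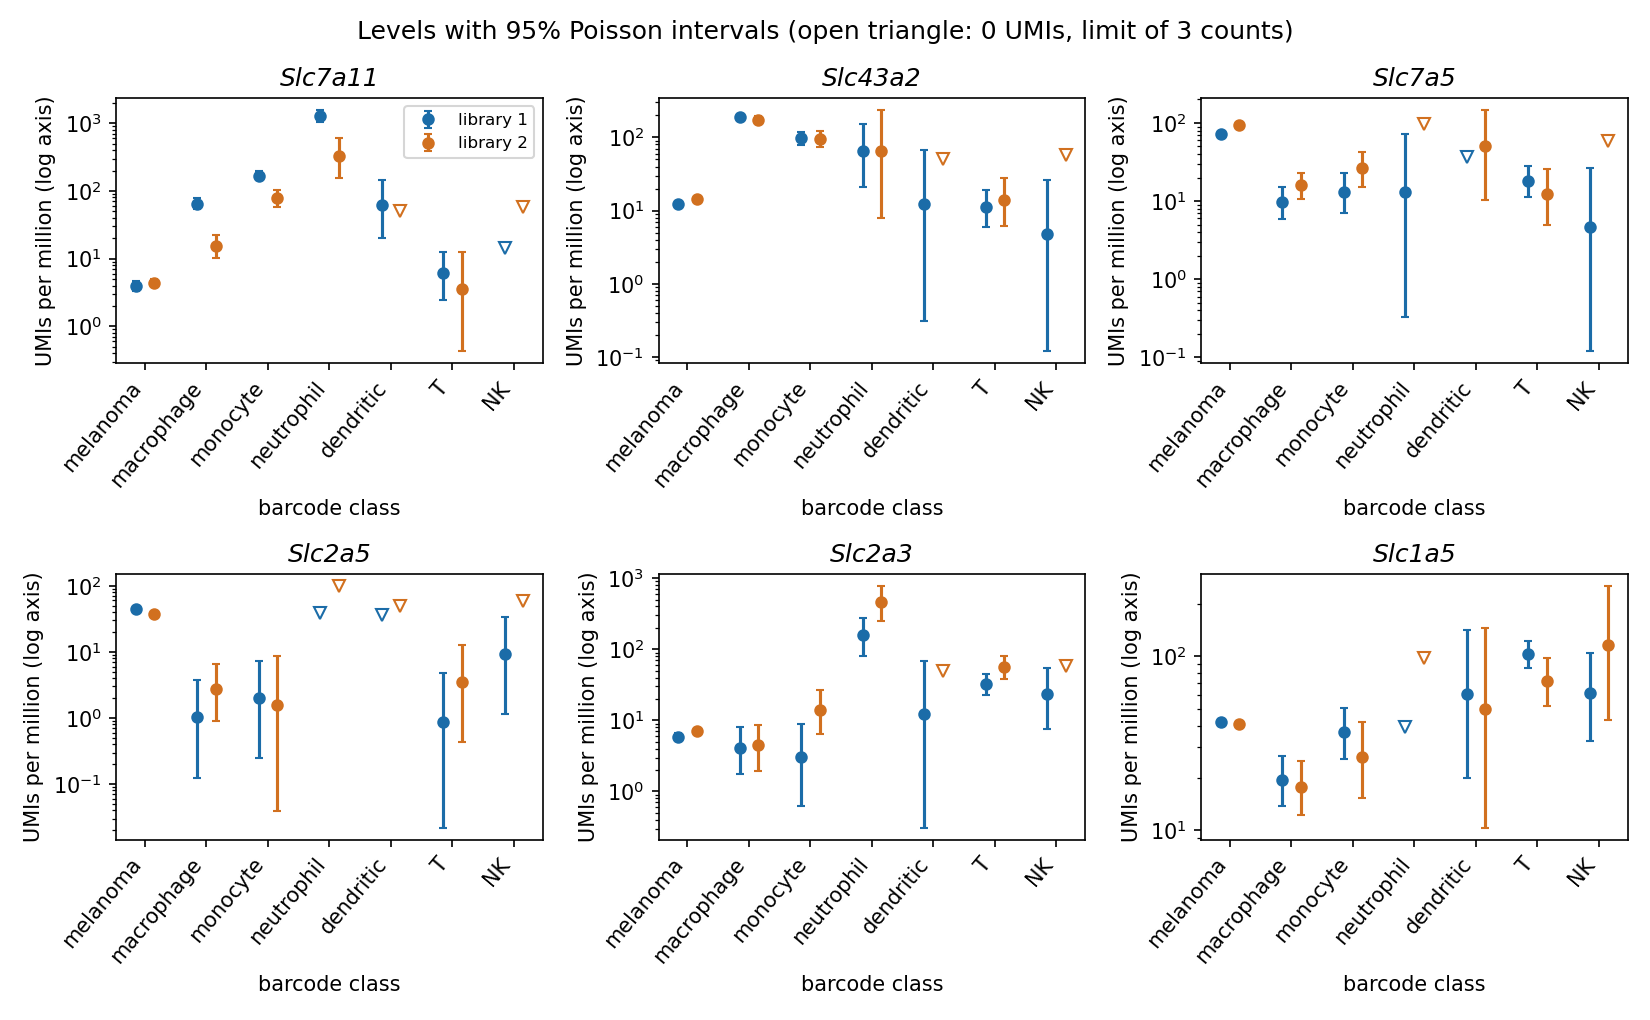
CPM (log axis) of 6 genes by barcode class, library 1 in blue and library 2 in orange, with exact 95% Poisson intervals and open triangles for 0 UMIs at the limit of 3 counts. Slc7a11 steps up from melanoma over macrophages and monocytes to neutrophils, Slc43a2 is highest in macrophages, and Slc7a5 and Slc2a5 are highest in melanoma among the 4 largest classes.

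Glutamine and small neutral amino acid carriers showed another division. Slc1a5 (ASCT2, chr7:16781340-16798274), a glutamine exchanger, was at 103 CPM (85.4 to 123) and 72.3 (51.9 to 98.1) in T barcodes. In NK barcodes it was at 61.3 (32.7 to 105) and 117 (42.8 to 254), from 13 and 6 UMIs. It was at 41.7 and 40.9 in melanoma, 36.6 and 26.3 in monocytes and 19.5 and 17.7 in macrophages. Neutrophils had 0 UMIs in both libraries, a limit of 39.3 and 98.1 CPM at 3 counts. In library 2 a level like that of melanoma was not detectable at this depth. The intervals of T and melanoma barcodes did not overlap in either library. Slc1a4 (ASCT1), a carrier of serine and alanine, was higher in melanoma, at 7.88 and 6.84 CPM there against 1.54 and 0.554 in macrophages, the latter from 3 and 1 UMIs.

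Slc38a1 and Slc38a2 encode the sodium-coupled glutamine importers SNAT1 and SNAT2. Slc38a1 was at 159 and 161 CPM in melanoma, 109 and 88.3 in monocytes, 78.3 and 56.5 in macrophages and 78.8 and 95.2 in T barcodes. Slc38a2 was at 236 and 185 CPM in melanoma, 93.2 and 94.7 in macrophages, 143 and 156 in monocytes, 150 and 168 in T and 269 and 272 in NK barcodes. Slc38a2 was 2.53 and 1.96 times higher in melanoma than in macrophages, so it missed the rule of 2 times in library 2. Of the less studied family members, Slc38a7, a lysosomal glutamine carrier, and Slc38a6 were highest in macrophages among the 4 largest classes. Slc38a7 was at 28.7 and 34.9 CPM there, 12.5 and 14.3 in melanoma, 9.15 and 7.75 in monocytes and 3.46 and 1.76 in T barcodes. Slc38a6 was at 34.8 and 33.8 CPM in macrophages, 10.7 and 14.7 in melanoma, 4.07 and 6.20 in monocytes and 6.06 and 7.05 in T barcodes. Slc38a10 was at 92.5 and 77.3 CPM in melanoma and 68.1 and 57.1 in macrophages, and between 13.9 and 28.2 in monocytes and T barcodes.

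The hexose carriers were low apart from single classes. Slc2a5 (GLUT5, chr4:150119283-150144169), a fructose transporter, was at 44.1 CPM (42.0 to 46.2) and 37.3 (35.8 to 38.8) in melanoma. Macrophages, monocytes and T barcodes had 1 to 5 UMIs of it per library, between 0.866 and 3.53 CPM, and neutrophil and dendritic barcodes had 0. NK barcodes had 2 UMIs in library 1, 9.44 CPM (1.14 to 34.1), and 0 in library 2. Its ratio of macrophages to melanoma, 0.0232 and 0.0743, was near the 2.47% and 6.86% at which the pigment cell genes were found in macrophages, and with melanoma RNA subtracted macrophages were left with 0 and 0.228 CPM. Thinned to 1000 UMIs, 4.40% and 3.75% of melanoma barcodes had a Slc2a5 UMI, and 0.228% and 0.166% of macrophages. Slc2a3 (GLUT3), a glucose transporter of high affinity, was at 32.0 CPM (22.6 to 44.2) and 56.4 (38.6 to 79.7) in T barcodes, against 5.77 and 7.01 in melanoma, 4.10 and 4.43 in macrophages and 3.05 and 13.9 in monocytes. Neutrophils had 12 and 14 UMIs of Slc2a3, 157 CPM (81.1 to 274) and 458 (250.3 to 768). These were its highest values of the 7 classes in both libraries, with intervals above those of T barcodes, and they rest on 26 UMIs in all.

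Of the Slc16 family, Slc16a1 (MCT1), which moves lactate and pyruvate with a proton, was at 34.0 and 35.2 CPM in melanoma, 9.22 and 9.97 in macrophages, 11.2 and 10.8 in monocytes and 19.1 and 8.82 in T barcodes. Slc16a10 (TAT1), a carrier of aromatic amino acids, was at 33.3 and 27.7 CPM in macrophages and 34.6 and 51.1 in monocytes, against 0.199 and 0.323 in melanoma. Slc16a7 (MCT2), a lactate and pyruvate carrier, was at 8.70 and 8.31 CPM in macrophages and 0.994 and 0.892 in melanoma. Slc16a6 (MCT7) was at 56.3 and 65.9 CPM in macrophages, 27.5 and 21.7 in monocytes, 29.4 and 22.9 in T barcodes and 17.0 and 18.0 in melanoma. Slc16a1 was thus above macrophages in melanoma, and the other named Slc16 genes were below them.

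Among the genes that were not named, Slc43a3, a purine carrier, had 32 and 28 UMIs in macrophages and 17 and 10 in T barcodes, against 4 and 10 in the far larger melanoma class. Slc16a11 had 9 and 7 UMIs in T barcodes and 1 UMI in all other classes of the 7 together. Both were chosen for mention after their values were seen. Slc7a6os, named for its NK level of 51.9 and 38.9 CPM, stood between 12.8 and 30.3 CPM in melanoma, macrophages, monocytes and T barcodes. Its NK level came from 11 and 2 UMIs, and in library 2 1 UMI was worth 19.4 CPM, so NK barcodes cannot be set apart there.

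Macrophages and melanoma barcodes were compared first. Of the 36 genes, 28 had enough UMIs. Macrophages were higher in 9 of them (Slc7a11, Slc16a10, Slc16a7, Slc38a7, Slc7a7, Slc7a8, Slc43a2, Slc16a6 and Slc38a6), beside 13.1% of all genes with enough UMIs, and melanoma was higher in 7 (Slc16a1, Slc2a5, Slc1a5, Slc7a6, Slc7a5, Slc1a4 and Slc38a1), beside 20.5%. The ratio of macrophages to melanoma was 167 (80.1 to 404) and 85.8 (50.6 to 150.4) for Slc16a10, 34.2 (25.3 to 46.6) and 43 (31.8 to 58.2) for Slc7a8 and 15.3 (13.3 to 17.5) and 12.0 (10.6 to 13.7) for Slc43a2. For Slc7a11 it was 16.5 (12.9 to 20.9) in library 1 and 3.53 (2.30 to 5.21) in library 2, intervals that did not overlap. For Slc2a5, melanoma was 43 (11.9 to 356) and 13.5 (5.76 to 41.5) times higher. The median log2 ratio of the 28 genes was -0.19 over both libraries, beside -0.41 for all genes with enough UMIs. As means over barcodes in place of summed UMIs, Slc1a5 (log2 ratio -0.99) and Slc38a1 (-0.996) missed 2 times in library 1.

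**Figure D3:**
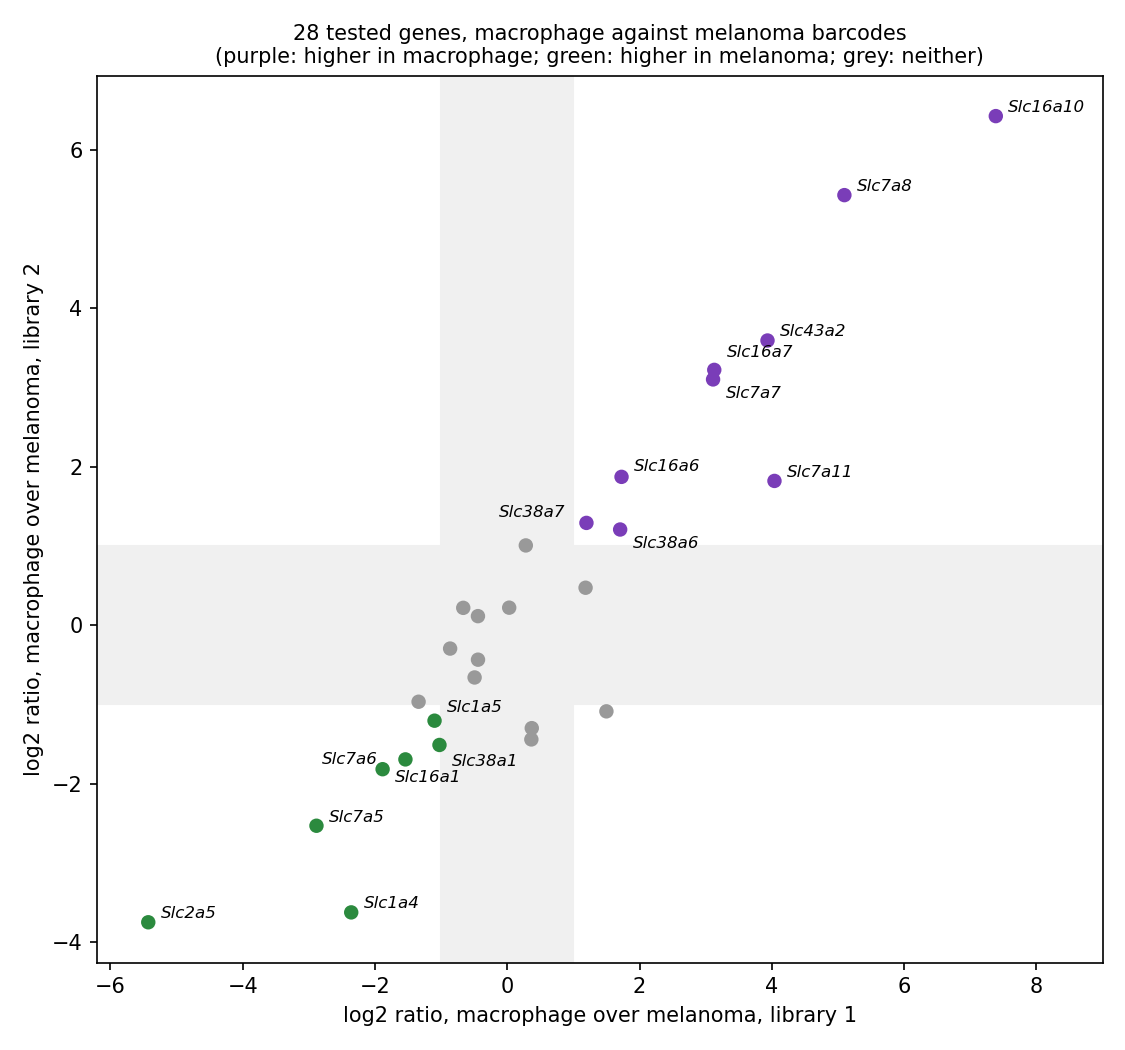
Log2 ratio of macrophage over melanoma CPM in library 1 (horizontal axis) and library 2 (vertical axis) for the 28 genes with enough UMIs, with grey bands within 2 times. The 9 genes higher in macrophages lie at the upper right, the 7 higher in melanoma at the lower left, and Slc7a11 lies to the right of the line of equal ratios.

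Monocytes and macrophages were compared next. With 12 genes counted, Slc7a11 was higher in monocytes, by 2.58 (2.03 to 3.28) and 4.99 (3.08 to 8.24) times, where 5.65% of all genes were higher. Slc38a7, Slc16a6, Slc38a10 and Slc38a6 were higher in macrophages, where 9.53% of all genes were. Slc38a6 had the largest ratio of these 4 in both libraries, 8.56 (3.19 to 32.3) and 5.45 (2.02 to 20.7), from 4 UMIs in the monocytes of each library. Slc16a6 missed 2 times in library 1 with mixed barcodes kept (log2 ratio -0.73) and without mitochondrial and ribosomal protein genes (-0.999). Slc3a2, Slc7a7, Slc7a8 and Slc16a10 were within 2 times in both libraries.

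Neutrophils were set beside monocytes with 5 genes counted. Slc7a11 was higher by 7.64 (5.89 to 9.87) and 4.22 (1.91 to 8.42) times, beside 5.23% of all genes. Slc38a1 was lower, from 2 and 1 neutrophil UMIs, beside 26.8% of all genes, and the interval of its ratio included 1 in library 2. In library 1, 44 of 112 neutrophils had a Slc7a11 UMI, and in library 2, 8 of 46. NK barcodes of like depth, with medians of 829 and 678.5 UMIs against 612 and 577 in neutrophils, had none in 231 and 64. The neutrophil result rests on shallow barcodes. Only 10 and 3 neutrophils had 1000 UMIs or more, at 347 CPM (94.5 to 888) from 4 UMIs and at 0 UMIs, while those under 1000 UMIs were at 1449 and 379 CPM. With a minimum of 1000 UMIs, the classes were named anew and the call was lost. In library 1, 8 of 18 neutrophil barcodes named in this way had not been in the class before, and in library 2, 18 of 21. The 8 marker genes of the class made 210028 and 205128 CPM in neutrophils, and the median log2 ratio of all genes with enough UMIs was -0.81.

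Dendritic barcodes, which were few, gave no call among 5 genes, beside 2.87% of all genes higher in dendritic barcodes and 17% higher in monocytes. Flt3, a dendritic growth factor receptor and one of the markers that named the class, was at 73.4 and 100.1 CPM there against 4.07 and 4.65 in monocytes. The dendritic levels of Slc38a1 (85.6 and 150.2 CPM from 7 and 9 UMIs) and Slc38a2 (220.1 and 133 CPM from 18 and 8 UMIs) had intervals that overlapped those of monocytes in both libraries.

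T barcodes differed from macrophages in 8 of 12 genes counted. Slc1a5 was higher in T barcodes, by 5.30 (3.65 to 7.85) and 4.08 (2.51 to 6.69) times, beside 7.89% of all genes. Slc16a10, Slc38a7, Slc7a7, Slc7a8, Slc43a2, Slc38a10 and Slc38a6 were lower, beside 18.2% of all genes. Slc43a2 was 16.9 (9.77 to 32.1) and 12.4 (6.22 to 29.0) times lower, Slc7a8 at least 23.3 times lower in library 1, where T barcodes had 0 UMIs, and 31.1 (5.46 to 1241) times lower in library 2. The median log2 ratio of the 12 genes was -1.81, beside -0.04 for all genes with enough UMIs. Without mitochondrial and ribosomal protein genes in the totals, that median over all genes moved to 0.25, and the shares of genes higher and lower in T moved from 7.89% and 18.2% to 12.8% and 15.2%. Slc38a10 then missed 2 times in library 2, with a log2 ratio of -0.72, as it did under 4 other alternatives, and the other 7 genes kept their calls. Slc2a3 was 7.82 and 12.7 times higher in T barcodes but had fewer than 50 UMIs in both classes together, and with a minimum of 20 it was called as well. NK against T barcodes gave no call among 3 genes (Slc3a2, Slc38a1 and Slc38a2), beside 2.2% of all genes higher in NK and 7.72% higher in T barcodes. The comparisons with macrophages share the macrophage barcodes, and those with monocytes share the monocytes.

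Genes that act with these carriers were followed in 6 lists, counted by the same rule. In macrophages against melanoma, the counts stand beside 13.1% of all genes higher in macrophages and 20.5% higher in melanoma. Of 10 partners and regulators, 3 were higher in macrophages and 2 lower, and counts this small say nothing particular to the list. Macrophages were higher than melanoma in Nfe2l2 (NRF2), at 248 and 260 against 68.6 and 75.2 CPM, in Txnip, at 95.2 and 156 against 43.3 and 29.7, and in Arrdc4, at 22.0 and 33.8 against 0.224 and 0.415. Txnip and Arrdc4 encode arrestins that remove glucose transporters from the surface. Bsg, the chaperone of the lactate carriers, was lower in macrophages, at 574 and 555 against 1678 and 1472 CPM, as was Nedd4l. The median log2 ratio of this list was 0.18, beside -0.41 for all genes.

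Enzymes that make serine, glycine and asparagine were lower in macrophages in 6 of 7 (Phgdh, Psph, Asns, Mthfd2, Shmt2 and Shmt1), beside 20.5% of all genes, with a median log2 ratio of -1.94. Phgdh, the first enzyme of serine synthesis, was at 8.19 and 13.9 CPM in macrophages against 161 and 137 in melanoma. Asns, asparagine synthetase, was at 6.14 and 7.76 against 87.1 and 77.4. T barcodes had Phgdh at 148 and 148 CPM and were above macrophages in Phgdh and Psph of 5 genes with enough UMIs, beside 7.89% of all genes.

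Of 18 enzymes of glycolysis and lactate metabolism, 11 were lower in macrophages than in melanoma, beside 20.5% of all genes, among them Ldhb, at 25.6 and 47.7 against 641 and 580 CPM, Tpi1, Pgk1 and Gapdh. Hk3, a hexokinase of myeloid cells, was the 1 enzyme higher in macrophages, beside 13.1% of all genes, at 69.1 and 50.4 against 0.671 and 0.308 CPM. The median log2 ratio of the list was -1.28. The medians of both lists were below that of all genes, -0.41.

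For glutamine, glutamate and branched-chain enzymes, 13 were counted, with 3 higher in macrophages and 3 in melanoma, beside 13.1% and 20.5% of all genes. These shares are near the background and are no result about the list. Glul (glutamine synthetase), Gpt2 and Glud1 were higher in macrophages, and Bcat1, Got2 and Bckdhb were higher in melanoma. Glul was at 87.0 and 99.7 against 32.9 and 31.3 CPM, and Bcat1, which takes the amino group from leucine, at 1.54 and 1.11 against 26.3 and 24.4. Of 25 genes of amino acid sensing by mTORC1, Fnip2 and Sesn1 were higher in macrophages and Rragd and Sesn3 lower, with a median of -0.03. These 2 and 2 genes are smaller shares than the 13.1% and 20.5% of all genes. Of 10 genes of cystine use and glutathione, 1 was higher in macrophages and 3 lower, beside the same 13.1% and 20.5%. Gpx1, a glutathione peroxidase, was the higher gene, at 1092 and 893 against 427 and 423 CPM. Chac1, Cth and Ggt1 were lower, at 0 to 3 UMIs each in the macrophages of either library. Cth in library 1 and Ggt1 in both libraries had 0 UMIs there, so their ratios are bounds at 3 counts. The ratio of Cth in library 2, 0.442 (0.0531 to 1.62), had an interval that included 1. Gsr, glutathione reductase, was at 32.8 and 29.4 CPM in macrophages, 292 and 253 in monocytes and 720 and 589 in neutrophils. In monocytes against macrophages, 5 genes of this list were counted. Gsr was higher and Gclm lower, the latter at 21.4 and 23.2 against 58.4 and 52.1 CPM, beside 5.65% and 9.53% of all genes. In neutrophils against monocytes, 4 were counted. Gsr was higher and 0 genes were lower, beside 5.23% and 26.8% of all genes. The median log2 ratio of these 4 was -0.79, beside -0.81 for all genes. Counts this small say nothing particular to the list.

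Set side by side within a class, the libraries were alike for most of these genes. None of 29 genes with at least 50 UMIs over both libraries differed by 2 times in melanoma (1.62% of all genes were higher in library 2 and 0.623% lower), and none of 5 in T barcodes (1.02% and 2.49%). The same held for the 2 genes counted in NK barcodes (1.04% and 6.37%) and the 1 in dendritic barcodes (1.36% and 7.36%). Slc7a11 stood apart in macrophages and monocytes. It was lower in library 2 by ratios of 0.239 (0.153 to 0.361) in macrophages, 0.462 (0.329 to 0.637) in monocytes and 0.255 (0.119 to 0.489) in neutrophils. In neutrophils Slc7a11 was the 1 gene with enough UMIs, 98 and 10, so no other member could be set beside it. With at least 1000 UMIs per barcode the monocyte log2 ratio was -0.83, within 2 times, and with classes kept as named it was -0.93. Genes lower in library 2 made up 2.11% of all genes in macrophages, 2.68% in monocytes and 10.4% in neutrophils, and those higher made up 1.18%, 1.82% and 8.96%. Slc2a6, a hexose carrier of intracellular membranes, was the other gene below this fold, at 51.9 (38.6 to 68.2) and 12.4 (5.35 to 24.4) CPM in monocytes, a ratio of 0.239 (0.0979 to 0.507). The other members with enough UMIs, 15 in macrophages and 8 in monocytes, lay within 2 times. Thinned to 1000 UMIs, 6.16% (4.10 to 8.84) of library 1 and 2.33% (1.28 to 3.87) of library 2 macrophages had a Slc7a11 UMI. In monocytes these shares were 13.9% (11 to 17.3) and 7.91% (5.19 to 11.5), and in melanoma 0.494% and 0.563%. The unthinned shares were 15.9% and 3.94%, 22.2% and 6.93%, and 5.92% and 4.48%.

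**Figure D4:**
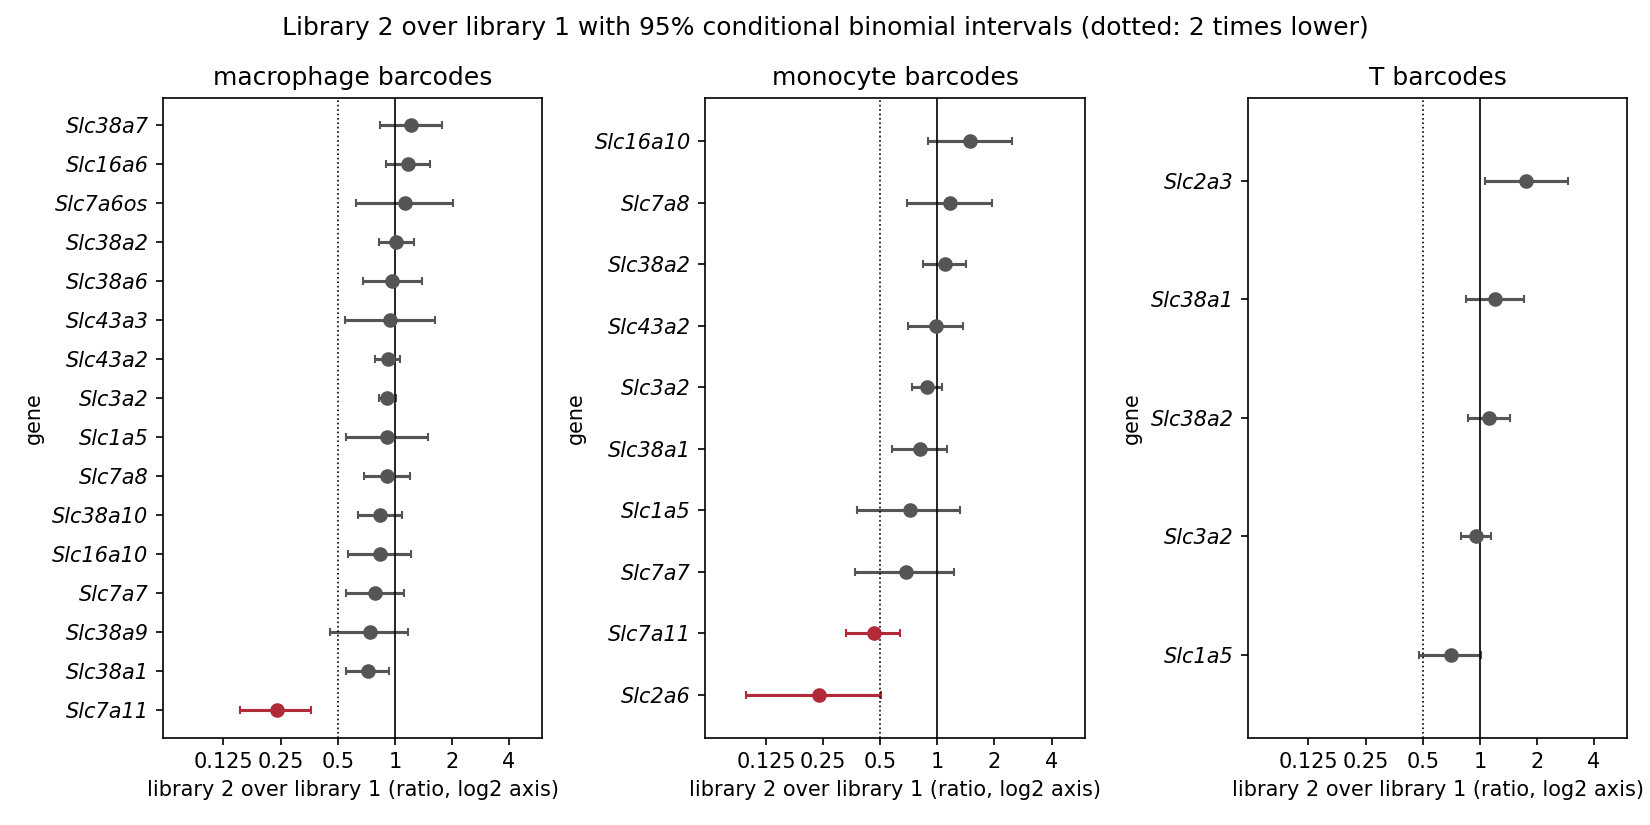
Ratio of library 2 to library 1 CPM (log2 axis) with 95% conditional binomial intervals for each gene with at least 50 UMIs over both libraries, in macrophage, monocyte and T barcodes. Slc7a11 in macrophages and monocytes and Slc2a6 in monocytes (red) lie left of the dotted line at 0.5, and all other genes lie right of it.

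Other measures moved with the library number in some classes. The erythroid list (Hbb-bs, Hba-a1 and Hba-a2) made 1112 CPM in macrophages of the first library and 48.8 in those of the second. It was at 1338 and 34.1 in monocytes, 1152 and 21.2 in T and 52.3 and 32.7 in neutrophil barcodes. In melanoma it was at 60.4 and 72.0, in NK at 56.6 and 19.4 and in dendritic barcodes at 36.7 and 16.7. The median barcode of each class held 0 UMIs of this list. The neutrophil list was at 33.8 and 271 CPM in macrophages and 264 and 1056 in monocytes, higher in library 2, where Slc7a11 was lower. The melanoma list was at 318 and 762 CPM in macrophages and 310.2 and 761 in monocytes. The monocyte list was at 714 and 775 CPM in macrophages, and the median depth of monocytes was 1819 and 1028.5 UMIs. The part of these in the Slc7a11 and Slc2a6 values was not tested. With 1 library per number, a difference between mice, tumours, handling or genotypes cannot be told apart.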

How the data were processed

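The authors deposited a filtered matrix of raw UMI counts for each gene and barcode. Cell Ranger and the mm10 build are named in the submitters' processing notes. Per the file headers, software version 3.0.2 wrote it. The labels do not say how reads were assigned. Depth was 49129318 UMIs in library 1 and 73507228 in library 2, and per the labels' protocols sequencing aimed at 10000 reads for each cell.

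Barcodes under 500 UMIs, under 200 genes or over 10% mitochondrial UMIs were removed. For each marker list, a barcode's share of UMIs was divided by the median share of the 50 barcodes with the highest share and at least 5 UMIs of the list. The highest score named the class if it reached 0.1 with at least 2 UMIs from at least 2 marker genes. A second list with at least 2 UMIs and a score above 0.5 of the best made a barcode mixed, and 269 and 209 such barcodes in library 1 and library 2 were left out, which also served in place of a doublet caller. Another 529 and 622 stayed unnamed, 133 and 11 were B and 55 and 32 plasmacytoid dendritic barcodes. These thresholds were set after the data were seen, and the numbers of barcodes within 0.8 to 1.25 times of one were 68 and 81 in macrophages and 110 and 125 in monocytes. Because classes are named from markers, none of those markers is a result here.

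The members, lists and the rule for named genes (at least 30 CPM in 1 class in both libraries, or called) were chosen with earlier results of these data known. A count of 0 was set to 3 counts for a bound. A symbol that names several genes was dropped from its list. Ratios have conditional binomial intervals and shares Clopper-Pearson intervals, at 95%. The side-by-side values of the libraries were added after the data were seen. With 1 sample per genotype there is no test. The calculation was tested on simulated data. Calculations ran in Python 3.11.15 with pandas 2.3.3, scipy 1.17.1 and numpy 2.4.6.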

Additional observations from a re-analysis of the deposited data

Results flagged for a closer look

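Slc38a1 stood out in barcodes outside the 7 classes compared. In the 133 B barcodes of library 1 it was at 292 CPM (33 UMIs), with an interval above those of all 7 classes in that library. The 11 B barcodes of library 2 held 1 UMI of it (56.8 CPM, 1.44 to 316), so the level there was not informative.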

How the results depend on the processing

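The 62 log2 ratios behind the calls were recomputed under 9 alternatives, of which the minimum of 1000 UMIs with classes kept as named was chosen after seeing the data. Of 555 values, 550 moved by less than their counting error, 4 moved by more and 1 reversed. The 62 values under the minimum of 20 UMIs per gene could not move, because it changes only which genes are counted. Leaving copies in put 1 and 16 copies into the immune classes of library 1 and library 2, so it could move ratios between them little. The count of unmoved values therefore overstates how far the ratios were challenged. With at least 1000 UMIs per barcode, Slc7a11 in neutrophils over monocytes was 0.38 in library 1 and reversed to -0.78 in library 2, and 0 genes were higher in neutrophils. With classes kept as named at that minimum, it was 1.08 in library 1, 0 genes were higher in either class, and 3 of these values, and the ratio of library 2 to library 1 for Slc7a11 in neutrophils, could not be given because a count was 0. With mixed barcodes put in their highest class, 1 gene was higher in monocytes than in dendritic barcodes. With a minimum of 20 UMIs per gene, 2 genes were higher in T barcodes than in macrophages. With melanoma RNA subtracted, library 2 ratios of macrophages to melanoma moved to -7.36 for Slc2a5 and -3.16 for Slc7a5, further in the same direction. Without mitochondrial and ribosomal protein genes in the totals, the median of all genes moved from -0.41 to -0.53 in macrophages over melanoma, from -0.81 to -1.08 in neutrophils over monocytes and from -0.04 to 0.25 in T over macrophages. No paired analysis was possible because the groups hold 1 sample each and the barcodes carry no label of the group. Leaving out a replicate was not possible for the same reason. Depth limits the neutrophil, dendritic and NK classes most, where 1 UMI is worth 4.72 to 32.7 CPM.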

Other observations

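Plasmacytoid dendritic barcodes, of which there were 55 in library 1 and 32 in library 2, belonged to no comparison. Slc3a2 was at 502 and 648 CPM there, from 43 and 22 UMIs, Slc38a1 at 175 and 383 CPM, from 15 and 13 UMIs, and Slc7a6os at 117 and 147 CPM, from 10 and 5 UMIs. The 36 genes together made 1284 and 1767 CPM in these barcodes.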
